A study of Homo sapiens with 5 samples.

Results

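The 10 genes described here code for the core of mechanistic target of rapamycin complex 1 (mTORC1) and for its nearest regulators, and the data are the Nrf2 and HIF1α enrichment peaks at them in bronchial epithelial cells with and without inorganic arsenic (iAs). They are RHEB, MTOR, RPTOR, MLST8, AKT1S1, TSC1, TSC2, TBC1D7, DDIT4 and SESN2, of 20163 protein-coding genes in the annotation. The genes were chosen by their called peaks in these same 4 libraries, so the presence, place and width of peaks at them are given as a description with no test. A peak was counted for a gene when it touched the annotated gene body or the 50 kb on either side of it, on hg19 with GENCODE positions. By that rule 75 of the 29781 deposited peaks fell at the 10 genes. The outermost peaks inside it lay 46.7 and 46.1 kb from MTOR, both in the HIF1α iAs list, and 44.0 kb from DDIT4, and the nearest ones outside it lay 50.6, 50.7 and 50.8 kb from AKT1S1.

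Chromatin was immunoprecipitated from BEAS-2B, an immortalized line of human bronchial epithelial cells. Cells of all groups were held in serum-free medium overnight and then kept for 6 h without iAs (control) or with 1 μM iAs. There was 1 library for each antibody and condition, giving the groups Nrf2 control, Nrf2 iAs, HIF1α control and HIF1α iAs, and an input library whose reads were not analysed here. The deposited lists held 3204, 7743, 6008 and 12826 peaks in that order, with median widths of 309, 333, 276 and 340 bp. Only the ends of each peak are listed, with no height, read count or score, so the depth behind a peak is unknown and a place without a called peak can still hold signal. With 1 library per condition, no difference below has a replicate check and none was tested. The Nrf2 lists carried the sequence TGACTCA, the core of the AP-1 element, within 100 bp of the peak centre in 47.8% of control and 38.3% of iAs peaks. Windows of the same length 5 kb away carried it in 3.37% and 3.85%. The antioxidant response element is TGACNNNGC, and its form that contains TGACTCA is TGACTCAGC. That form lay in 23.8% and 15.6% of the Nrf2 peaks, against 0.187% and 0.245% of the windows 5 kb away. The HIF1α lists carried GCGTG, a form of the hypoxia response element, in 33.3% and 41.3% of peaks, against 16.2% and 17.5% of the windows 5 kb away. ACGTG, the other form searched, lay in 23.6% of control and 19.6% of iAs peaks, against 9.24% and 9.55%. TGACTCA lay in 14.5% and 2.39% of the HIF1α peaks, against 3.55% and 3.11%. The windows were not matched for G and C bases, whose median was 60.2% and 69.8% in the HIF1α peaks.

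mTORC1 is a protein kinase complex at the lysosome that couples cell growth to growth factors, amino acids, oxygen and energy. The small GTPase RHEB switches it on, and the TSC complex, made of TSC1, TSC2 and TBC1D7, holds RHEB in its inactive form. Several stress-responsive proteins act on this switch, among them DDIT4 (REDD1), long known as a hypoxia-induced gene, and SESN2, which is induced by oxidative and amino acid stress. Nrf2 is the transcription factor of the antioxidant response and HIF1α that of the hypoxia response, and mTORC1 activity in turn favours the synthesis of HIF1α.

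HIF1α peaks were found at most of the 10 genes, and Nrf2 peaks at about the share of genes that had one genome-wide. In control cells Nrf2 had a peak at 2 genes, RPTOR and TBC1D7, where 20.0% of all protein-coding genes had one by the same rule. With iAs it had peaks at 4 genes, RHEB, RPTOR, TBC1D7 and DDIT4, against 35.0% of all genes. HIF1α had peaks at 8 genes in control cells, all but TSC2 and SESN2, against 45.5% of all genes, and at all 10 genes with iAs, against 68.6%. Counting only peaks with no control peak of the same factor at their place, Nrf2 had such an iAs peak at the same 4 genes, against 25.4% of all genes, and HIF1α at all 10, against 59.6%. The numbers of peaks in the 10 windows were 4 and 13 for Nrf2 and 14 and 44 for HIF1α, control first. Per megabase of window this came to 2.19 and 7.10 for Nrf2 and to 7.65 and 24.0 for HIF1α, while the merged windows of all protein-coding genes held 1.35, 3.28, 2.89 and 6.68. The windows of the 10 genes also held more protein-coding start sites, 22.4 per megabase against 10.4 over all windows, and the part of this in the peak density was not tested.

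**Figure D1:**
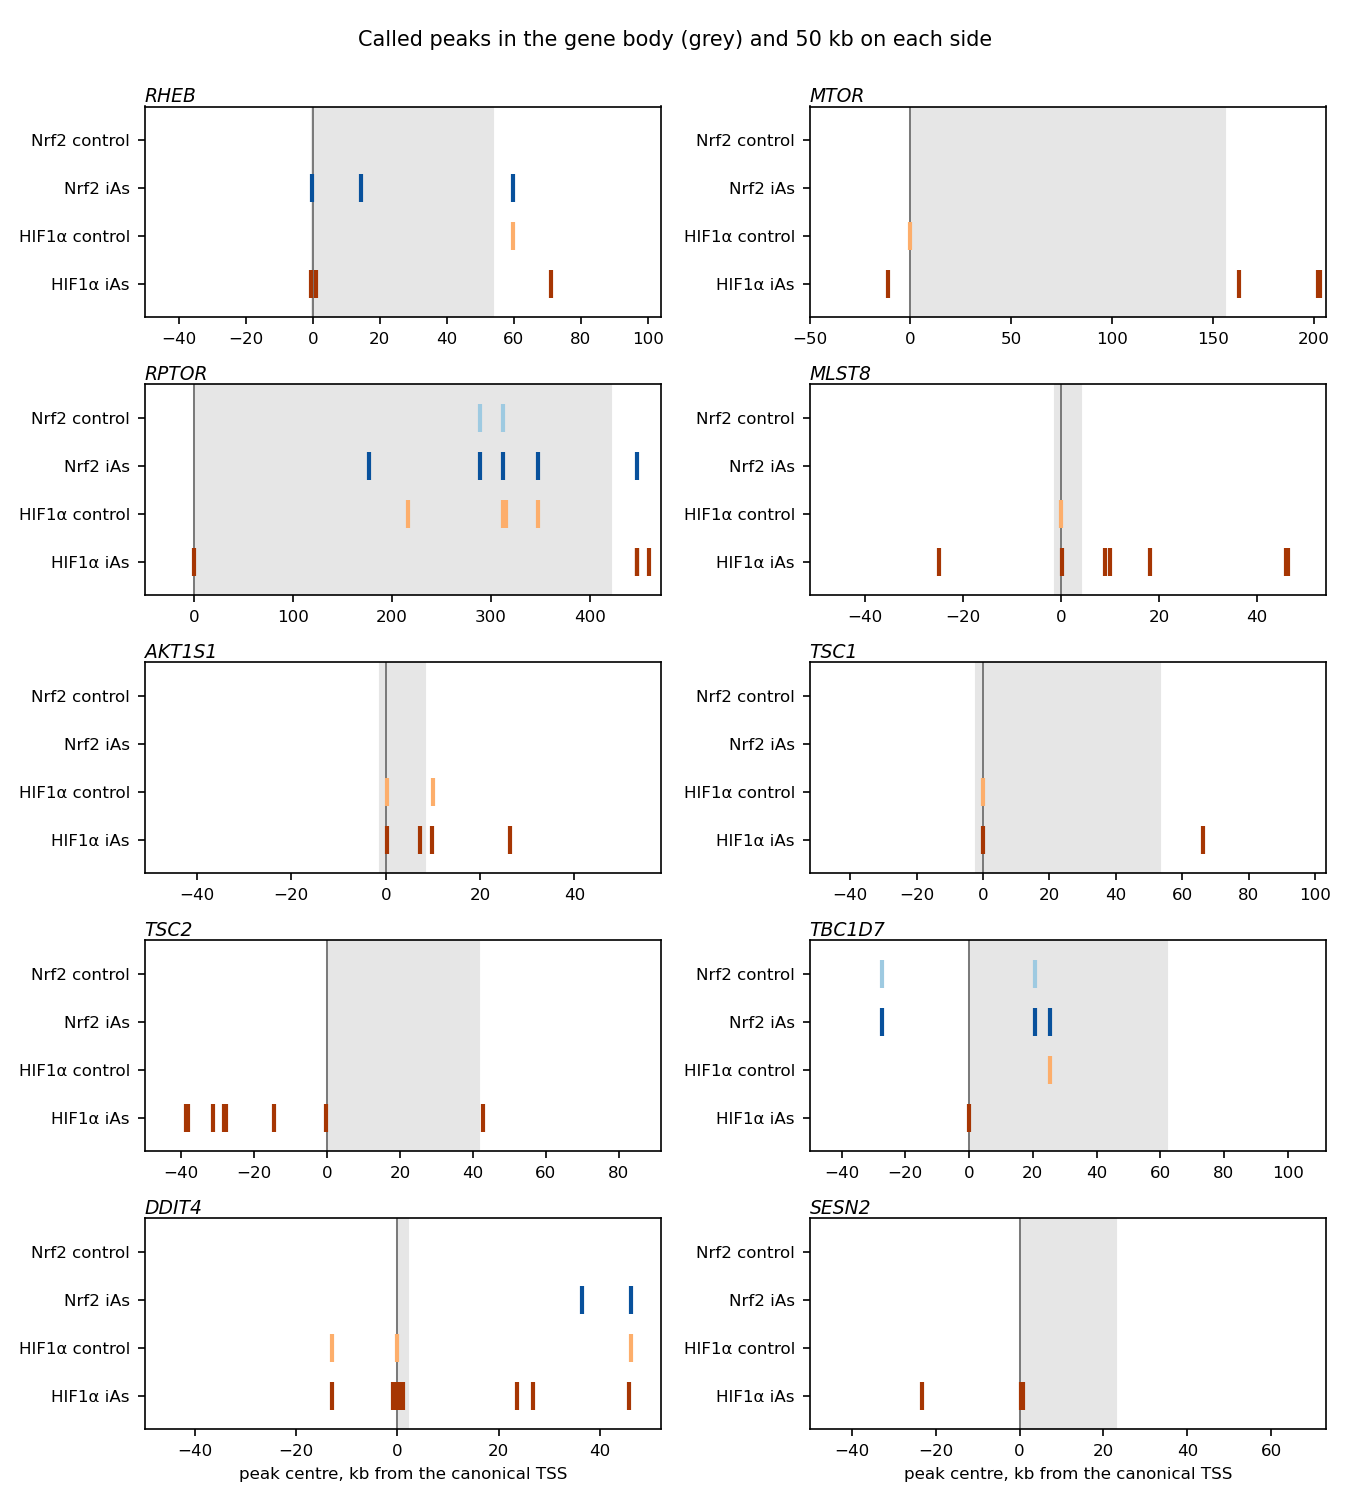
Each panel shows 1 gene, with the centre of every called peak by its distance in kb from the canonical transcription start site (TSS, vertical line; positive values run into the gene) and a row for each library. Grey marks the annotated gene body, and the axes end 50 kb beyond it. Nrf2 ticks appear at RHEB, RPTOR, TBC1D7 and DDIT4 alone, and HIF1α ticks of control cells inside RPTOR and TBC1D7 have no HIF1α iAs tick in the row below.

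The activator RHEB was the member at which Nrf2 was found at the promoter. No Nrf2 peak was called at RHEB in control cells, and 3 were called with iAs. One covered the TSS (chr7:151216853-151217432, 580 bp, centred 161 bp upstream), one lay in intron 1 (chr7:151202556-151202783, 228 bp, 14.3 kb into the gene) and one lay 5.69 kb past the end of the gene (chr7:151157144-151157412, 269 bp). HIF1α had 1 peak in control cells, at the last of these places (chr7:151157084-151157348, 265 bp), and none there with iAs. With iAs it had 3 others, of which 2 flanked the promoter: 595 bp centred 561 bp upstream (chr7:151217245-151217839) and 211 bp in intron 1 centred 824 bp downstream (chr7:151216052-151216262). The Nrf2 and HIF1α iAs peaks at the promoter shared 188 bp, with their centres 400 bp apart. RHEB thus had called peaks of both factors at its start site with iAs and of neither in control cells. From browser tracks of the signal, the study describes a HIF1α peak of control cells in intron 1 of RHEB that was gone with iAs. It also reports that HIF1α peaks in the promoter, the first exon or both rose with iAs. In the list of called peaks, which is not the same measure, no HIF1α control peak lies inside the gene. The shared stretch upstream of RHEB, the intronic Nrf2 site and the downstream place that carried HIF1α in control cells and Nrf2 with iAs are shown to let their letters be compared. Sequences here and below are the hg19 plus strand, and capitals mark matches on either strand to 6 short motifs. TGACTCA stood for the AP-1 element, and TGACTCAGC and TGACNNNGC for the antioxidant response element. ACGTG and GCGTG stood for the hypoxia response element, and ATGGCGGC for the core of the YY1 element. A TGACTCAGC match is counted under the first 3 at once, and CACGTG holds ACGTG on both strands.
RHEB promoter, Nrf2 iAs and HIF1α iAs, chr7:151217245-151217432: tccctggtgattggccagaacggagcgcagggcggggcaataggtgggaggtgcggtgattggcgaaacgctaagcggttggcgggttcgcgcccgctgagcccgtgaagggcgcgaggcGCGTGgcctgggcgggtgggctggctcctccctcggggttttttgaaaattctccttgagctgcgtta
RHEB intron 1, Nrf2 iAs, chr7:151202556-151202783: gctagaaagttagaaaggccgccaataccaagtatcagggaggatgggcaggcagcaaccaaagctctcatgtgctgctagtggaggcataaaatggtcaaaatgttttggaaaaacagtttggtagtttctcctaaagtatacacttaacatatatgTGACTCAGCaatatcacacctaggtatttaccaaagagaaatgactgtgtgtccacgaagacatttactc
RHEB downstream, Nrf2 iAs and HIF1α control, chr7:151157144-151157348: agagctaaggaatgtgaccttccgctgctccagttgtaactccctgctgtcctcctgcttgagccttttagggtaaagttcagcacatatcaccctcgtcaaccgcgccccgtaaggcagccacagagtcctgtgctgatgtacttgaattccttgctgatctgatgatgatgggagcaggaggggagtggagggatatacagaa
The intron 1 site held TGACTCAGC, the only one of the 13 Nrf2 iAs peaks at the 10 genes to do so (7.69%, against 15.6% of the whole list). The shared promoter stretch held 1 GCGTG. Outside it, the Nrf2 promoter peak also held a TGACNNNGC match, TGACGCAGC on the minus strand centred 14 bp downstream of the TSS, and an ACGTG. The shared downstream stretch held none of the 6, and the Nrf2 peak there had a GCGTG beyond it.

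MTOR, the kinase itself, was the only member whose start site had a peak in control cells and none with iAs. That HIF1α peak was narrow (chr1:11322711-11322900, 190 bp, centred 197 bp upstream), the smallest width in its list. It was not among the wider 50% of that list, so with those peaks alone MTOR had HIF1α at its start site in neither condition. No Nrf2 peak was called at MTOR in either condition. None of the 4 HIF1α iAs peaks in the window lay at the MTOR start site; 2 lay within 1 kb of the TSS of SRM and 1 within 1 kb of that of EXOSC10. The control peak is shown because no other member lost its promoter peak, and it held 1 GCGTG on the minus strand.
MTOR promoter, HIF1α control, chr1:11322711-11322900: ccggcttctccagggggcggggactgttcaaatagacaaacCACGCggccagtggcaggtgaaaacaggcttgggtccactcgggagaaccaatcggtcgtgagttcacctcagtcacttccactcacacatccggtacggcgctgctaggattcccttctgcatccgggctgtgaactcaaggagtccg

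RPTOR codes for raptor, the scaffold that brings substrates to the kinase, and it is the longest of the 10 genes at 422 kb. It had peaks of both factors deep in its introns. Nrf2 in control cells had 2, in intron 9 (252 bp) and intron 12 (265 bp), and with iAs both were called again at 540 and 463 bp. With iAs there were 3 more Nrf2 peaks, in intron 4 (chr17:78694922-78695233, 312 bp), in intron 18 (chr17:78865820-78866520, 701 bp, the widest Nrf2 peak at any member) and 25.1 kb past the gene at the CHMP6 promoter (480 bp). HIF1α in control cells had 4 peaks, in introns 6, 12, 13 and 18, with widths of 203, 218, 220 and 403 bp. None of these 4 was called with iAs. The 4 HIF1α iAs peaks lay elsewhere, 1 over the RPTOR start site (chr17:78518566-78518780, 215 bp, centred 35 bp downstream) and 3 beyond the end of the gene, 2 of them at the CHMP6 promoter. HIF1α peaks at RPTOR were thus intronic in control cells and at the start site or outside the gene with iAs. The intron 12 site had Nrf2 in both conditions and HIF1α in control cells, and the centres of the control peaks of both factors were 1 bp apart. The intron 18 site had HIF1α in control cells and Nrf2 with iAs, and the HIF1α peak lay wholly within the Nrf2 peak (403 bp shared). Both are shown because both factors were called there, the second as the 300 bases around the centre of the shared stretch.
RPTOR intron 12, Nrf2 in both conditions and HIF1α control, chr17:78830356-78830573: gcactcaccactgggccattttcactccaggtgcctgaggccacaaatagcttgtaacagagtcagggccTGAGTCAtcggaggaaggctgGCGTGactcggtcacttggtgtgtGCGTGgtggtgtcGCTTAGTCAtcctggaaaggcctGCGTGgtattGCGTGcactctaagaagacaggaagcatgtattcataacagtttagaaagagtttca
RPTOR intron 18, Nrf2 iAs and HIF1α control, chr17:78865893-78866192: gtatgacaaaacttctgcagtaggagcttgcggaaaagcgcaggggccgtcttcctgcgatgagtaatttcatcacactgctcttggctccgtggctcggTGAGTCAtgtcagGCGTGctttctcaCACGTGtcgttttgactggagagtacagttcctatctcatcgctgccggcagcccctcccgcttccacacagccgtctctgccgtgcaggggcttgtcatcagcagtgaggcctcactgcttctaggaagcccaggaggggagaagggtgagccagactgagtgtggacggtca
Each held 1 TGACTCA beside hypoxia response element cores. In intron 12 there were also a TGACNNNGC and 4 GCGTG matches, and in intron 18 there were 1 GCGTG and a CACGTG. All 4 Nrf2 iAs peaks inside RPTOR held TGACTCA somewhere in the peak.

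MLST8, a subunit that mTORC1 shares with mTORC2, had no Nrf2 peak. Its start site carried HIF1α in both conditions, at chr16:2255244-2255713 (470 bp) without and chr16:2255204-2256097 (894 bp) with iAs. The iAs peak extended the control peak into the gene. The other 6 HIF1α iAs peaks of the window were nearest to the TSSs of CASKIN1, PGP, E4F1 and ECI1.

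AKT1S1 codes for PRAS40, an mTORC1-bound inhibitor released by Akt. It had the widest peak of the 10 genes, HIF1α over the start site, at chr19:50379575-50380998 (1424 bp) without and chr19:50379577-50381086 (1510 bp) with iAs. That peak also reached the TSS of TBC1D17, within 1 kb. It held 6 ACGTG matches, with each CACGTG counted on both strands. It also held 2 GCGTG and 3 ATGGCGGC matches, the most ATGGCGGC of any peak here. With iAs there was a further HIF1α peak in intron 4 (chr19:50373005-50373637, 633 bp) and one at PTOV1 (537 bp). No Nrf2 peak was called at AKT1S1.

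The 3 genes of the TSC complex, which keeps RHEB inactive, differed in their peaks. TSC1 (hamartin) had HIF1α over its start site in both conditions, 298 bp in control cells (chr9:135819839-135820136) and 566 bp with iAs (chr9:135819604-135820169), and 1 more with iAs at AK8. TSC2 (tuberin), the subunit that acts on RHEB, had no peak of either factor in control cells and 8 HIF1α peaks with iAs. Only 1 of the 8 was at its start site (chr16:2097492-2098129, 638 bp, centred 176 bp upstream), and the TSS of NTHL1, which runs the other way, was closer to its centre at 25 bp. Another lay 1.00 kb past the gene (chr16:2140495-2140972, 478 bp), and the other 6 lay 14.5 to 38.6 kb upstream, 4 of them within 1 kb of the TSS of ZNF598 or NPW. TBC1D7, the smallest subunit, was the only one with Nrf2 peaks.

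At TBC1D7 Nrf2 was called in control cells in intron 5 (chr6:13307908-13308116, 209 bp) and 27.2 kb upstream (chr6:13355844-13356111, 268 bp). Both were called again with iAs, at 540 and 542 bp. One more Nrf2 peak was called with iAs 25.5 kb downstream of the TSS (chr6:13303041-13303522, 482 bp), past the canonical transcript and inside the annotated gene. HIF1α was called at that place in control cells (chr6:13303117-13303538, 422 bp, 406 bp shared) and not with iAs. Its only iAs peak was at the TBC1D7 start site (chr6:13328520-13328774, 255 bp, centred 122 bp downstream). The downstream place is shown for the 300 bases around the centre of the shared stretch, and it held TGACTCA and ACGTG side by side.
TBC1D7 downstream, Nrf2 iAs and HIF1α control, chr6:13303170-13303469: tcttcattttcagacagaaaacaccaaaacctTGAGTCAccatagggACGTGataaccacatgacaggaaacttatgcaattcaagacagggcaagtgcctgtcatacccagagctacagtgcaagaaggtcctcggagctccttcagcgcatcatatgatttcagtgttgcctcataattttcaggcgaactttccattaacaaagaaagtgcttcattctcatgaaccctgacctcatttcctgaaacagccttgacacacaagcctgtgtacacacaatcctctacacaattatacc

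DDIT4, whose product activates the TSC complex under hypoxia and other stress, had the most HIF1α iAs peaks of the 10 genes together with TSC2, 8 each. Unlike at TSC2, 7 of the 8 were nearest to the TSS of DDIT4 itself. In control cells HIF1α had 3 peaks: over the TSS (chr10:74033390-74033712, 323 bp), 12.9 kb upstream (chr10:74020661-74020956, 296 bp) and 46.2 kb downstream (206 bp). With iAs the first was 700 bp wide (chr10:74033093-74033792) and the second 543 bp (chr10:74020564-74021106). A further 3 HIF1α iAs peaks lay within 1 kb of the TSS, of 233, 251 and 478 bp, the last of them over coding exon 3 of this short gene of 2.12 kb. Downstream there were others at 23.6 kb (707 bp), 26.8 kb (252 bp) and 45.9 kb (347 bp). Nrf2 had no peak in control cells and 2 with iAs, both far downstream at 36.5 kb (223 bp) and 46.2 kb (chr10:74079745-74079928, 184 bp). The second of these overlapped the HIF1α control peak by 159 bp, and the nearest HIF1α iAs peak ended 52 bp before that control peak. The upstream site and the promoter are shown as the places where HIF1α was called in both conditions. Each is given as the 300 bases around the centre of the iAs peak. The downstream site is shown as the place where the Nrf2 iAs peak overlapped the HIF1α control peak.
DDIT4 upstream, HIF1α in both conditions, chr10:74020686-74020985: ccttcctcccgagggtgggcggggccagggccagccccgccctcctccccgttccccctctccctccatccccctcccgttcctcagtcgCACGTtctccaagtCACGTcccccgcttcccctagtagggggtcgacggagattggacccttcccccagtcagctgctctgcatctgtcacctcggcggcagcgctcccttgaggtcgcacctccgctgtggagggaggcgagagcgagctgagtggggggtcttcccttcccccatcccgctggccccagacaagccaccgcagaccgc
DDIT4 promoter, HIF1α in both conditions, chr10:74033293-74033592: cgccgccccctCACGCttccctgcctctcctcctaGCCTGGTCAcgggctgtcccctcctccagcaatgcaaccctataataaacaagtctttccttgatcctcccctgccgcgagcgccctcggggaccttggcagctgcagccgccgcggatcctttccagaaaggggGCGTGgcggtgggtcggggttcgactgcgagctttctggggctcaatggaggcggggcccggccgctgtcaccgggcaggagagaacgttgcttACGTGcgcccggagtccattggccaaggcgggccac
DDIT4 downstream, Nrf2 iAs and HIF1α control, chr10:74079770-74079928: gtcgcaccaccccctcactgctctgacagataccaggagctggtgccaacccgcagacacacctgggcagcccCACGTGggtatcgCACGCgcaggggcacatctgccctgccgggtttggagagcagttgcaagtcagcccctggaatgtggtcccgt
The upstream stretch held 2 ACGTG matches, and the promoter stretch held 1 ACGTG, 2 GCGTG and a TGACNNNGC. The downstream stretch held a CACGTG and a GCGTG and none of the antioxidant response element forms.

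SESN2 codes for sestrin 2, a leucine sensor that restrains mTORC1 through GATOR2. It had no peak of either factor in control cells and no Nrf2 peak with iAs. HIF1α iAs covered its start site (chr1:28586023-28586604, 582 bp, centred 284 bp downstream), with a second peak in intron 1 (chr1:28586808-28587122, 315 bp), and another lay at ATP5IF1 (467 bp).

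**Figure D2:**
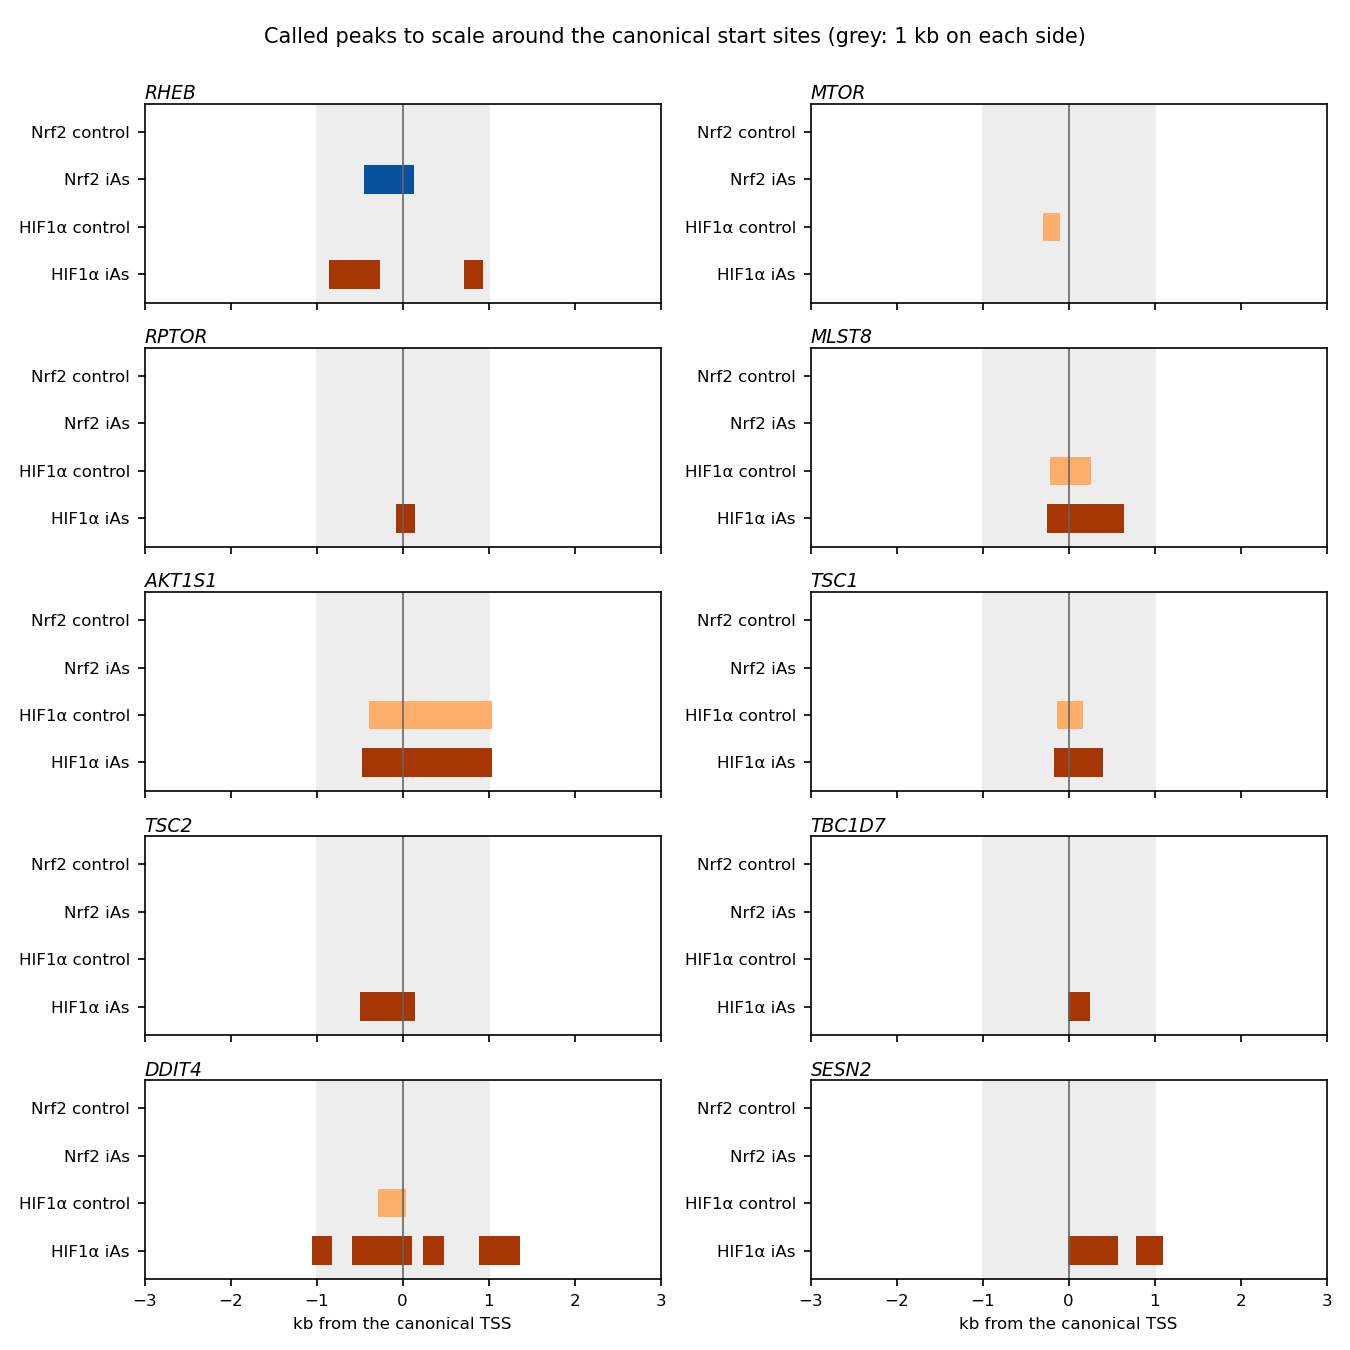
Called peaks drawn to scale within 3 kb of the canonical TSS of each gene (vertical line), in kb with positive values running into the gene, 1 row per library and grey for 1 kb on each side. HIF1α iAs bars lie within the grey at every gene but MTOR, and the only Nrf2 bar is that of iAs cells at RHEB.

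At the start sites the 10 genes fell into 3 patterns for HIF1α. Within 1 kb of the canonical TSS, HIF1α was called in both conditions at MLST8, AKT1S1, TSC1 and DDIT4 (4 of 10, against 14.8% of all protein-coding genes), with iAs alone at RHEB, RPTOR, TSC2, TBC1D7 and SESN2 (5 of 10, against 27.7%), and in control cells alone at MTOR (1 of 10, against 1.85%). In all, HIF1α was called at 5 start sites in control cells, against 16.7% of all genes, and at 9 with iAs, against 42.6%. Nrf2 was called at none of the 10 in control cells, against 2.32% of all genes, and at 1 with iAs, against 5.17%. The other protein-coding genes whose TSS lay in the same windows, 31 in number, give a local comparison: HIF1α was called within 1 kb of 2 of their start sites in control cells (6.45%) and of 17 with iAs (54.8%). The 2 sets are not separate. TBC1D17, NTHL1 and a gene beside RPTOR were counted through the same peaks as AKT1S1, TSC2 and RPTOR. The HIF1α iAs list was 12826 peaks long against 6008 in control cells. When its widest 6008 peaks alone were used, 7 of the 10 start sites had HIF1α with iAs, RPTOR and TBC1D7 having dropped out, against 26.0% of all genes. With the wider 50% of each list MTOR dropped out in control cells. This left 4 start sites there, against 9.86% of all genes, and none with HIF1α in control cells alone. The same setting gave 7 start sites with iAs, against 27.4% of all genes. RHEB remained the only start site with Nrf2 when the Nrf2 iAs list was shortened to its widest 3204 peaks, against 2.33% of all genes.

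**Figure D3:**
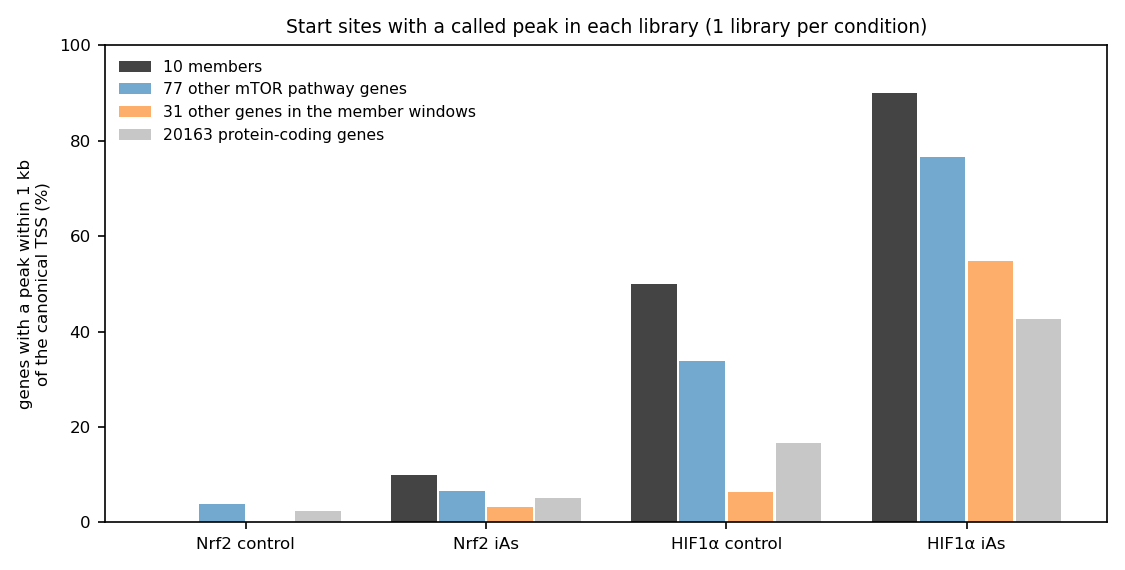
Bars give the percentage of genes with a called peak within 1 kb of the canonical TSS in each library, for the 10 genes, for 77 other genes of the mTOR pathway, for the 31 other genes with a TSS in the same windows and for all 20163 protein-coding genes. With HIF1α iAs the bars stand at 90.0%, 76.6%, 54.8% and 42.6%, and for Nrf2 all bars are at or under 10%; the members were chosen with these peaks known.

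Of the control peaks at the 10 genes, Nrf2 kept all 4 with iAs, where it kept 94.6% over its whole list. HIF1α kept 6 of 14 (42.9%), where it kept 53.7% over its list. The 8 HIF1α peaks not called again were at RHEB, MTOR, RPTOR, TBC1D7 and DDIT4, and all but the one at MTOR were away from promoters: 1 of 8 lay within 1 kb of any protein-coding TSS (12.5%, against 16.7% of such peaks in the whole list). Of the 6 HIF1α peaks called in both conditions, 5 lay within 1 kb of a TSS (83.3%, against 77.5%). So did 28 of the 38 called with iAs alone (73.7%, against 73.2%). Base composition followed the same division. The control-only peaks had a median of 55.5% G and C (46.9 to 62.1%), those called in both 69.8% (59.8 to 72.3%) and those of iAs alone 69.7% (55.4 to 79.5%), with 50.7%, 65.7% and 70.6% in the whole list. The Nrf2 iAs peaks at the 10 genes had a median of 55.8%, against 47.2% in the list.

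**Figure D4:**
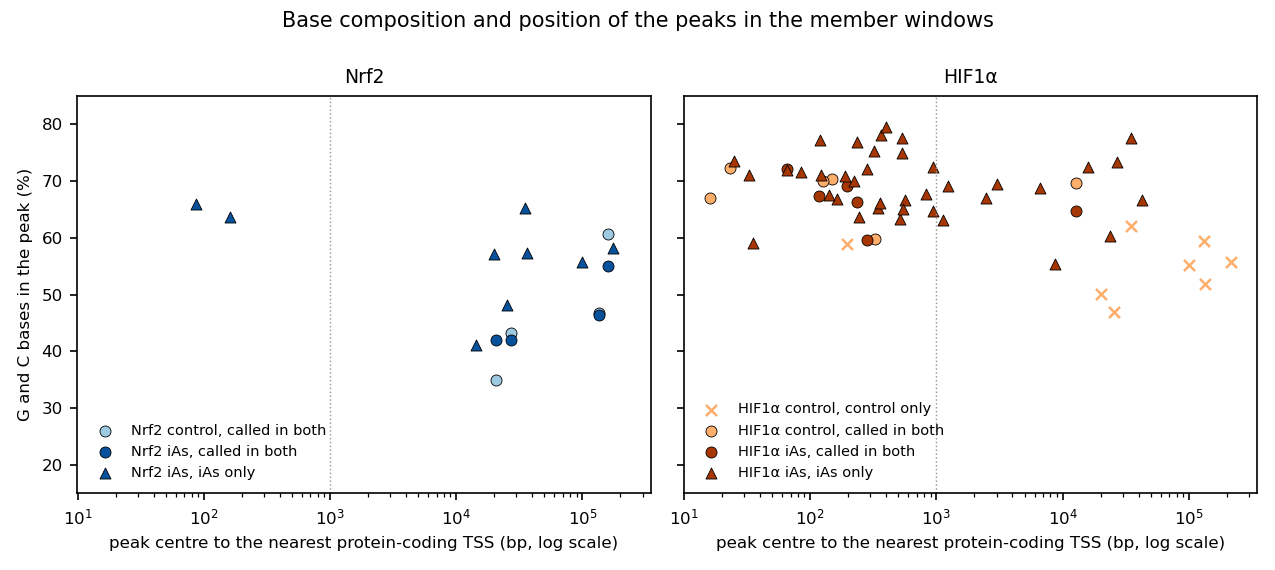
Each point is 1 peak at the 10 genes, placed by the distance of its centre from the nearest protein-coding TSS (bp, log scale, dotted line at 1 kb) and by its percentage of G and C bases, Nrf2 on the left and HIF1α on the right. Crosses mark peaks of control cells alone, circles peaks called in both conditions and triangles peaks of iAs cells alone; 7 of the 8 HIF1α crosses lie to the right of the line, at 46.9% to 62.1% G and C.

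At these genes TGACTCA was found in a larger share of Nrf2 than of HIF1α iAs peaks, while ACGTG was found in like shares of both. TGACTCA lay within 100 bp of the centre in 3 of 4 Nrf2 control and 4 of 13 Nrf2 iAs peaks at the 10 genes (30.8%, against 38.3% of the list), and anywhere in the peak in 7 of the 13 (53.8%, against 51.5%). In HIF1α iAs peaks it lay near the centre in 1 of 44 (2.27%, against 2.39%). ACGTG lay near the centre in 4 of the 13 Nrf2 iAs peaks (30.8%, against 12.4% of the list) and 13 of the 44 HIF1α iAs peaks (29.5%, against 19.6%). All 4 of those Nrf2 peaks were among the 9 called with iAs alone (44.4%, against 12.7% of such peaks in the list), and none of the 4 Nrf2 control peaks held it. All 4 also overlapped a HIF1α peak, of iAs cells at the RHEB promoter and of control cells elsewhere. The iAs-only Nrf2 peaks past RHEB and at CHMP6 overlapped a HIF1α peak and had no ACGTG near the centre. Those in RHEB intron 1, in RPTOR intron 4 and 36.5 kb downstream at DDIT4 overlapped no HIF1α peak and had none either. GCGTG lay near the centre in 1 of the 4 Nrf2 control peaks (25.0%, against 16.3%) and 3 of the 13 Nrf2 iAs peaks (23.1%, against 16.3%). By class of HIF1α peak, with those called in both conditions read on the control peak, TGACTCA lay near the centre in 2 of the 8 HIF1α peaks of control cells alone, both in RPTOR (25.0%, against 25.2% of such peaks in the list), and in none of the 6 called in both conditions or the 38 of iAs alone (5.33% and 1.75% in the list). ACGTG did so in 3 of the 8, 2 of the 6 and 12 of the 38 (37.5%, 33.3% and 31.6%, against 18.1%, 28.3% and 18.1% in the list). GCGTG did so in 5, 2 and 15 of them (62.5%, 33.3% and 39.5%, against 21.0%, 43.9% and 41.4%). ATGGCGGC lay near the centre in 2 of 14 HIF1α control peaks, at TSC1 and AKT1S1, and 2 of 44 HIF1α iAs peaks (3.96% and 3.64% of the lists). A match shows the letters and not an occupied site.

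Peaks called in both conditions at the same place were wider with iAs at every one of the 10 places at these genes. For Nrf2 the 4 ratios of iAs to control width ran from 1.75 to 2.58 with a median of 2.08, where the median over the whole list was 1.67 and 91.9% of pairs were wider with iAs. For HIF1α the 6 ratios ran from 1.06 at the AKT1S1 start site to 2.17 at the DDIT4 start site, with a median of 1.89, against a median of 1.47 and 76.9% wider over the list. The width of a called peak depends on depth and on the caller as well as on the signal.

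**Figure D5:**
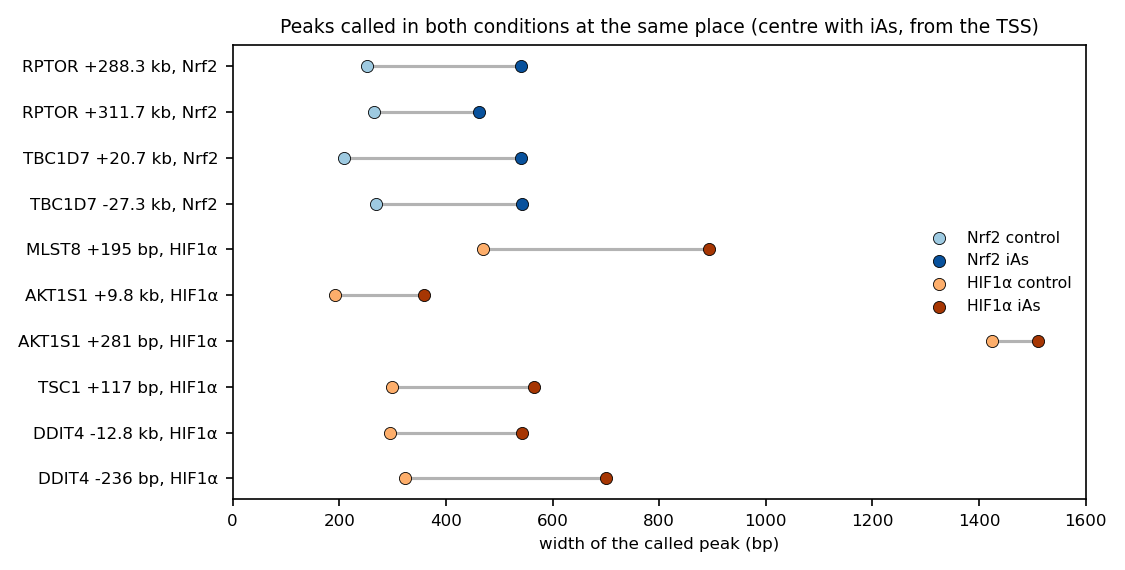
The 10 places called in both conditions, labelled by gene, distance of the iAs peak centre from the canonical TSS and factor, with the width of the called peak in bp in control (light) and iAs (dark) libraries. Every dark point lies to the right of its light one, by a factor of 1.06 at the AKT1S1 start site and of 1.75 to 2.58 at the others, with 1 library behind each point.

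Peaks of the 2 factors, of the same or of different conditions, overlapped at 7 places in these windows. With iAs, Nrf2 and HIF1α peaks overlapped at the RHEB promoter (188 bp) and at the CHMP6 promoter past RPTOR (169 bp), so that 2 of the 10 genes had such a place, against 12.7% of all protein-coding genes. The other 5 were Nrf2 iAs peaks over HIF1α peaks called in control cells alone. At 4 of them Nrf2 itself had no control peak: past RHEB, in RPTOR intron 18, in TBC1D7 past the canonical transcript and past DDIT4. Thus 4 of the 10 genes had a place with HIF1α in control cells alone and Nrf2 with iAs alone, against 3.86% of all genes. Per peak, 4 of the 8 HIF1α control-only peaks at these genes (50%) met such an Nrf2 peak, against 21.9% of the 2782 in the whole list. Any Nrf2 iAs peak, with or without an Nrf2 control peak, was met by 5 of the 8 (62.5%), against 41.4% of the whole list. The 4 places lay 25.5 to 348 kb from the TSS of their gene.

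The wider pathway was described with a list of 77 other genes in 5 roles. Within 1 kb of the canonical TSS, HIF1α was called at 26 of them in control cells (33.8%, against 16.7% of all protein-coding genes) and at 59 with iAs (76.6%, against 42.6%). Nrf2 was called at 3 (3.90%, against 2.32%) and 5 (6.49%, against 5.17%), close to its shares over all genes. HIF1α was called at 25 in both conditions, at 34 with iAs alone and at 1, RRAGB, in control cells alone. By role, and beside the same 42.6% of all genes, HIF1α iAs was at 8 of 13 Rag GTPase and Ragulator genes, which carry the amino acid signal to the lysosome (61.5%), at 12 of 17 genes of GATOR1, GATOR2, KICSTOR and the amino acid sensors (70.6%), and at 16 of 20 genes of growth factor and energy input (80.0%). It was at 5 of 7 mTORC2 and shared subunit genes (71.4%) and at 18 of 20 effectors (90.0%). The corresponding counts in control cells were 5, 4, 6, 3 and 8 (38.5%, 23.5%, 30%, 42.9% and 40%, against 16.7% of all genes). The 3 widest HIF1α iAs peaks at these start sites were at ATF4 (1610 bp), a transcription factor of the amino acid response, at LPIN1 (1428 bp), a phosphatidate phosphatase, and at RRAGD (1411 bp), a Rag GTPase. Of these, LPIN1 alone had a HIF1α control peak at the place, of 307 bp. For Nrf2 the widest were at ITFG2 of KICSTOR (698 bp, with 684 bp in control cells), at LARP1, a binder of ribosomal protein mRNAs (687 bp, iAs alone), and at LPIN1 (349 bp, with no control peak at its place, although another Nrf2 control peak lay within 1 kb of the LPIN1 TSS).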

How the data were processed

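Nrf2 and HIF1α ChIP-seq was done on BEAS-2B cells, 1 library per antibody and condition. The GEO labels name the Nrf2 antibody as from Santa Cruz, while the study's methods name Active Motif for both antibodies. The submitters' processing notes name BWA, MACS2 2.1.0 and hg19; the methods say that tags were down-sampled to the smallest library of a group and that peaks were called by MACS or SICER, without saying which made these lists. The authors deposited 1 table of peak intervals for the 4 libraries, with no height, count, score or p-value, so depth is unknown and no count test was possible. The input library was not analysed here.

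Intervals were read as deposited and shifted to positions counted from 1. Genes, canonical transcripts and start sites were taken from GENCODE 44 placed on hg19; DDIT4 has no canonical tag there and its longest coding transcript was used. An overlap of 1 bp made peaks of different lists shared. Motifs were searched on both strands of the GRCh37 sequence within 100 bp of each peak centre. Python scripts, checked on simulated intervals and sequence, and matplotlib did the work. All protein-coding genes, the whole lists and windows 5 kb away served as background. The 10 genes, the pathway list and the motifs were chosen with earlier results of these data known. All 10 genes are named, and single peaks nearest to some neighbouring genes are not reported here; of the 77 other pathway genes, those named first are the 3 per factor with the widest iAs peak within 1 kb of the TSS. RRAGB was named after its value was seen. The alternatives were other windows, overlaps, widths, list lengths and start sites.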

Additional observations from a re-analysis of the deposited data

Results flagged for a closer look

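At 4 places in the windows of the 10 genes the factors went opposite ways between the libraries: the control list alone held a HIF1α peak, and the iAs list alone an Nrf2 peak. The difference was not tested, since there is 1 library for each condition. The places were past RHEB, in intron 18 of RPTOR, in TBC1D7 past the canonical transcript and past DDIT4, where the Nrf2 and HIF1α peaks shared 205, 403, 406 and 159 bp. The nearest HIF1α iAs peak was 11.1, 99.4 and 25.0 kb away at the first 3, and 52 bp away at DDIT4. With a gap of up to 1 kb taken as shared, HIF1α kept 7 control peaks instead of 6, and the DDIT4 place was no longer control alone. The nearest Nrf2 control peak was 227, 35.2, 4.38 and 317 kb away in the same order. The genes were chosen by these peaks, and a place without a called peak can still hold signal.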

How the results depend on the processing

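Counts were compared with their value under each alternative, and a count within 1.5 times of the first was taken as unchanged, which held for 89 of 117 values. With 1 library per condition there is no p-value and no replicate to leave out. No paired analysis was possible because each antibody and condition has 1 library. The counts of members, of peaks and of start sites were as high or higher with iAs than in control cells for the same factor under every alternative run. The iAs lists were longer, 7743 against 3204 and 12826 against 6008 peaks, which favours this order. The setting with equal numbers took the widest iAs peaks against all control peaks. Over all genes the shares rose too, from 20.0% to 35.0% for Nrf2 and from 45.5% to 68.6% for HIF1α. The order is thus no check on these genes.

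The number of peaks in the windows moved most. HIF1α iAs fell from 44 to 20 with a window of 10 kb and to 17 with one of 2 kb, and Nrf2 iAs from 13 to 8 with 2 kb. With the wider 50% of each list the 4 counts were 0, 8, 7 and 23. Nrf2 control then had a peak at 0 members, against 12.2% of all genes, and 0 peaks kept. That setting also left MTOR without its HIF1α control peak, so 0 start sites had HIF1α in control cells alone. With equal numbers of peaks per factor Nrf2 iAs had 8 and HIF1α iAs 21. Counting only peaks nearest to the TSS of the member gave 2, 6, 7 and 17, with Nrf2 control at 1 member and HIF1α with an iAs-only peak at 6. The share of all genes was not counted under this rule, so these member counts have no background beside them. By an overlap of 50% of both peaks, Nrf2 kept 1 of its control peaks and 0 genes had overlapping Nrf2 and HIF1α iAs peaks. With a window of 10 kb 1 gene had them, RHEB. Shares of all genes were not counted under these settings either. Searching the whole peak for motifs raised Nrf2 iAs to 7 for TGACTCA, 9 for TGACNNNGC, 6 for GCGTG and 1 for ATGGCGGC. These were 53.8%, 69.2%, 46.2% and 7.69% of the peaks, against 51.5%, 44.2%, 29.2% and 0.982% of the whole list. HIF1α control rose to 4 for TGACTCA (28.6%, against 18.0%). HIF1α iAs rose to 10 for TGACNNNGC (22.7%, against 18.9%), 20 for ACGTG (45.5%, against 33.9%) and 31 for GCGTG (70.5%, against 61.1%). An alternative added after seeing the data counted start sites only by peaks nearest to the TSS of the member, which left 8 of 9 with HIF1α iAs, without TSC2. No share of all genes was counted for it.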
